A study of Mus musculus with 9 samples.

Results

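The genes of oxidative phosphorylation were followed in bulk RNA sequencing of mouse brain tissue that the submitters labelled anterior paraventricular nucleus of thalamus (aPVT), a midline nucleus made up largely of glutamatergic neurons. Members were chosen by gene symbol alone, as the symbols that begin with Nduf, Uqcr, Cox4i, Cox5, Cox6, Cox7, Cox8 or Atp5 plus Sdha to Sdhd, with pseudogene rows left out. The rule gave 94 of the 18956 symbols in the count table, and all 94 lie in the nuclear genome. By symbol they comprise 38 subunits of complex I, 8 complex I assembly factors (Ndufaf) and 4 subunits of complex II. The rest are 8 of complex III, 19 of complex IV and 17 of ATP synthase. Among the 38 are Ndufb4b and Ndufb4c, near copies of Ndufb4. The rule also asked for the mitochondrially encoded messenger RNAs (mt-Nd, mt-Cytb, mt-Co and mt-Atp), which were not analysed here. The 2 mitochondrially encoded ribosomal RNAs, mt-Rnr1 and mt-Rnr2, are not members and stand in for the mitochondrial genome in 1 comparison.

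The 9 libraries form 3 groups of 3, all from BALB/c mice. Non-stressed mice received saline. Stressed mice went through 5 days of social defeat, in which an aggressive mouse attacks the subject, and received either saline or (2S,6S)-hydroxynorketamine, a metabolite of ketamine called SHNK here. The sources used here give no dose, no time of injection and no age or sex of the mice. Nothing in the labels ties a library to an animal, so p-values measure only the spread between these libraries, which may be technical.

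Oxidative phosphorylation is the last stage of cellular respiration. Complexes I and II pass electrons from NADH and succinate to ubiquinone, complex III passes them on to cytochrome c, and complex IV hands them to oxygen. Complexes I, III and IV pump protons across the inner mitochondrial membrane, and ATP synthase uses the return flow to make ATP. Every complex except complex II combines subunits encoded in the nucleus with subunits encoded in mitochondrial DNA, and neurons rely on the pathway heavily for the ion pumping that follows synaptic activity.

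Total counts ran from 32307869 to 51569143 per library. The mean log2 CPM (read counts scaled to a common library total) over 10 glutamatergic aPVT marker genes overlapped between the groups, at 5.19 to 5.46 in non-stressed saline, 5.29 to 5.32 in stressed saline and 5.26 to 5.38 in SHNK. Between SHNK and stressed saline, the libraries did not overlap for 4 of these 10 genes that were higher and 3 that were lower. The shares of all tested genes were 14.4% and 15.9%. Means over lists for neighbouring tissue and for other cell types differed between some groups. The mean over 13 tested habenula genes ran from 2.59 to 3.64 in non-stressed saline, 4.19 to 5.69 in stressed saline and 1.28 to 1.86 in SHNK. The pan-neuronal list (12 genes) ran from 8.77 to 8.85, 8.63 to 8.69 and 8.78 to 8.86 in the same order, and the astrocyte list (12 genes) from 7.30 to 7.32, 7.39 to 7.61 and 6.90 to 7.06. Genes of other thalamic nuclei (14) ran from 7.43 to 7.49, 7.12 to 7.27 and 7.54 to 7.70, and genes of ependyma and cilia (12) from 1.74 to 2.14, 2.80 to 3.43 and 1.99 to 2.56. The mean over 5 blood genes, mostly hemoglobins, ran from 5.97 to 6.19, 5.58 to 5.99 and 6.26 to 6.41. The lowest count in the table is 1, so whether a marker was at 0 in some library could not be read from it. In bulk tissue, fewer cells of a type and less RNA per cell cannot be told apart. The part of these marker lists in the results below was not tested.

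Of the 94 members 93 were tested, and Cox8b, the muscle form of a complex IV subunit, had too few counts. Levels were compared between genes as CPM per kilobase of transcript, averaged over the 9 libraries. Atp5b, the catalytic beta subunit of ATP synthase, stood first at 1654 CPM per kilobase, followed by the complex IV subunits Cox4i1 at 1600.5 and Cox6a1 at 1070.3. The median was 252 CPM per kilobase over 85 subunits with a known length and 28.2 over the 8 assembly factors, among which Ndufaf1 was at 35.8 and Ndufaf4 at 14.3. At the bottom of the order among tested members lay forms that are restricted to certain cells or tissues, with Ndufa4l2 at 4.29, Cox7b2 at 1.92 and Cox4i2 at 1.65 CPM per kilobase.

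Stressed saline was first set against non-stressed saline, which asks what social defeat did. None of the 93 tested members passed edgeR's quasi-likelihood test at an adjusted p of 0.05 (Benjamini-Hochberg), where 1.17% of all tested genes were called. DESeq2 and limma voom also called 0, where they called 2.41% and 0.555% of all genes higher. At an unadjusted p of 0.05, 0 members were higher and 1 was lower, against 6.08% and 3.37% of all genes. The median log2 fold change of the members was -0.02, the same as the median of all tested genes (-0.02). Of the 93 members 35 (37.6%) lay above 0, beside 45.5% of all tested genes. Single libraries moved this count and turned the sign of the median. Over the 9 fits without 1 library it ran from 6 above 0 (median -0.12, without non-stressed saline replicate 1) to 72 (0.08, without non-stressed saline replicate 2). It was 9 (-0.09) without stressed saline replicate 3 and 61 (0.04) without stressed saline replicate 1. With upper-quartile scaling 51 were above 0, and the medians of members and of all genes were 0.01 and 0.00. By complex, the medians ran from -0.04 in complex IV to 0.00 in complexes II and III.

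The member with the smallest p was Cox4i2, the minor form of complex IV subunit 4 that replaces Cox4i1 in some cells and responds to low oxygen. It was at 1.14, 1.25 and 1.62 CPM in the non-stressed libraries and at 0.849, 1.07 and 0.619 CPM in the stressed saline libraries. The ranges did not overlap, but the log2 fold change of -0.65 ± 0.29 (standard error) had adjusted p = 0.504 in edgeR, on counts of only 22 to 71 per library. Ndufaf6, a complex I assembly factor, was the other member with groups apart, at 29.0 to 30.9 CPM without stress and 27.1 to 28.8 CPM with stress (log2 fold change -0.12, adjusted p = 0.811). Over all tested genes 5.53% were lower with groups apart, beside 2 of 93 members, and 7.36% were higher with groups apart, beside 0 members. Other members with a small p on the lower side included Cox7b2 and Ndufaf4 (log2 fold changes -0.40 and -0.13), and those with the smallest p on the higher side were Atp5g2, Ndufaf2, Ndufaf8, Ndufv3 and Ndufaf7 (0.15, 0.20, 0.21, 0.10 and 0.07). All of these had an adjusted p of at least 0.791.

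SHNK against stressed saline, which asks what the metabolite did in defeated mice, was the comparison in which members passed. In edgeR 6 of 93 were higher and 0 lower at an adjusted p of 0.05, against 2.45% of all tested genes called higher and 3.96% called lower. The 6 were Ndufa10 and Ndufs3 of complex I, the complex I assembly factors Ndufaf1 and Ndufaf4, Uqcrc2 of complex III and Cox5a of complex IV. Of all 93 members, these 6 included, 82 had a log2 fold change above 0, or 88.2% against 48.7% of all tested genes, with a median of 0.16 beside -0.01. At an unadjusted p of 0.05, 28 members were higher and 0 lower, against 10.6% and 12.8% of all genes. The libraries of the 2 groups did not overlap for 23 members that were higher and 1 that was lower, where 14.4% and 15.9% of all tested genes were higher and lower with groups apart. The changes were small: the 6 that passed were 1.21-fold to 1.35-fold higher.

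**Figure D1:**
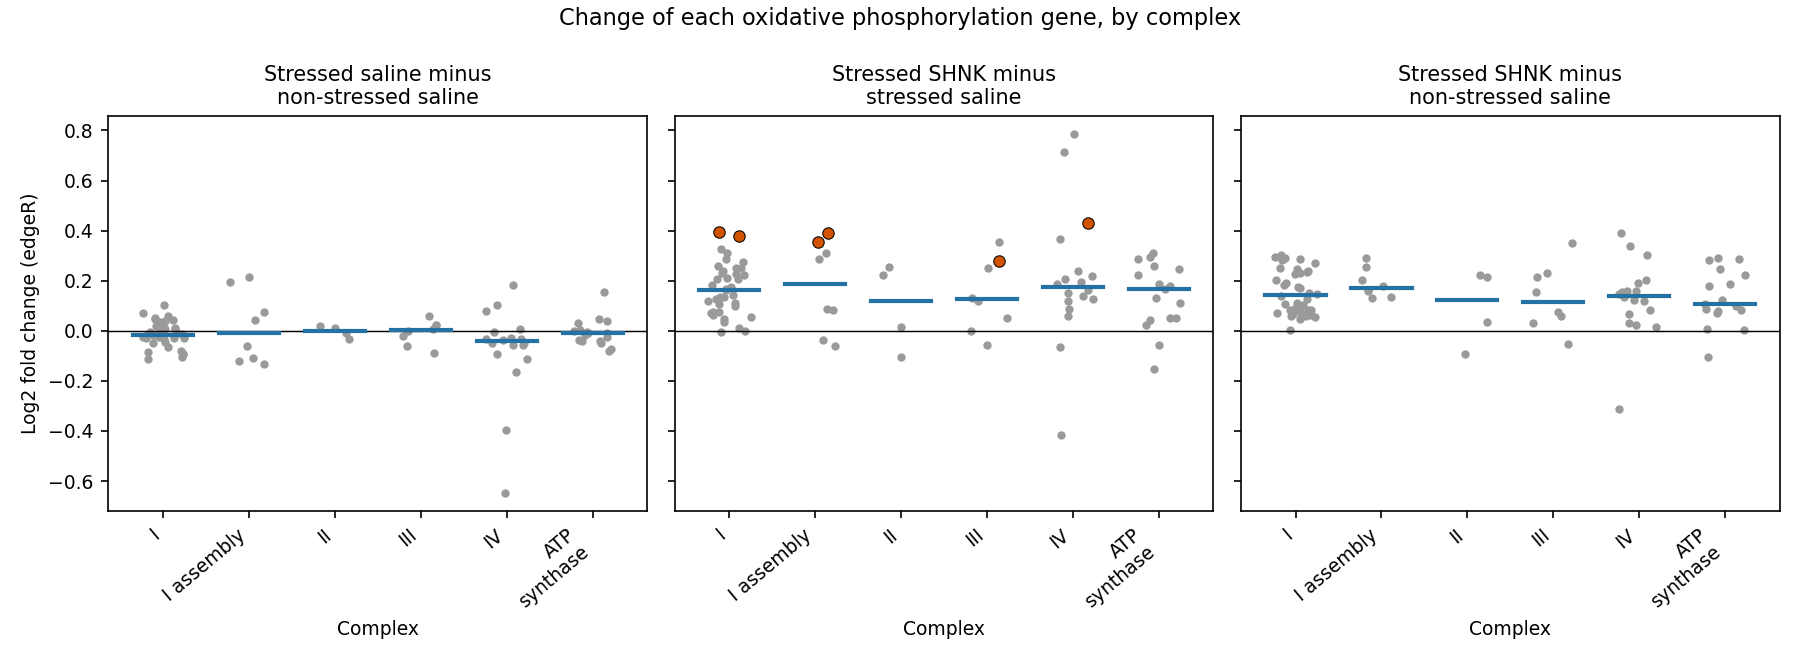
Log2 fold change (edgeR) of each tested gene, by complex, in the 3 comparisons; orange points passed at an adjusted p of 0.05 and blue bars are medians. The medians lie near 0 for stress against no stress, and all 6 orange points are in SHNK against stressed saline.

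Ndufa10, an accessory subunit in the membrane arm of complex I (chromosome 1, 92439486 to 92473825, GRCm38.p6), was at 365, 364 and 429 CPM in stressed saline and 463, 495 and 564 CPM in SHNK. All 3 SHNK libraries lay above all 6 saline libraries, since non-stressed saline was at 398, 417 and 429 CPM. The log2 fold change over stressed saline was 0.39 ± 0.091 (adjusted p = 0.0227). Ndufs3, a core subunit of the arm that carries electrons to ubiquinone (chromosome 2, 90894627 to 90904721), was at 192, 203 and 236 CPM in stressed saline and 249, 279 and 293 CPM in SHNK. Its non-stressed libraries, at 201, 246 and 225 CPM, also lay below SHNK, and the log2 fold change over stressed saline was 0.38 ± 0.10 (adjusted p = 0.0413).

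The assembly factors build complex I without being part of it. Ndufaf4 (chromosome 4, 24898083 to 24905001) was at 45.0, 49.5 and 42.7 CPM in stressed saline and 52.8, 60.1 and 66.8 CPM in SHNK, a log2 fold change of 0.39 ± 0.10 (adjusted p = 0.0417). Here the SHNK libraries overlapped with non-stressed saline, which held 53.4, 51.7 and 45.5 CPM. Ndufaf1 (chromosome 2, 119655446 to 119662839) was at 51.2, 44.5 and 44.8 CPM in stressed saline and 55.0, 57.6 and 67.1 CPM in SHNK, with 50.6, 46.6 and 49.6 CPM in non-stressed saline. All 3 SHNK libraries lay above the saline libraries, and the log2 fold change over stressed saline was 0.35 ± 0.097 (adjusted p = 0.0448). Of the 8 assembly factors 2 passed and 4 were higher with groups apart, beside 2.45% and 14.4% of all tested genes. The other 2 with groups apart were Ndufaf5 (0.31, adjusted p = 0.0867) and Ndufaf6 (0.29, adjusted p = 0.0718). Ndufaf2 and Ndufaf8 were at -0.06 and -0.04.

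Uqcrc2, a core protein of complex III on its matrix side (chromosome 7, 120635189 to 120659523), was at 360.5, 358 and 363 CPM in stressed saline, 369, 399 and 362 CPM in non-stressed saline and 419, 429 and 462 CPM in SHNK, with a log2 fold change over stressed saline of 0.28 ± 0.073 (adjusted p = 0.0405). Cox5a, an early-assembled subunit of complex IV (chromosome 9, 57517328 to 57532427), was at 273, 305 and 353 CPM in stressed saline, 284, 365 and 344 CPM in non-stressed saline and 372, 424 and 458 CPM in SHNK. For both genes every SHNK library lay above every saline library, and the log2 fold change of Cox5a over stressed saline was 0.43 ± 0.11 (adjusted p = 0.0416).

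**Figure D2:**
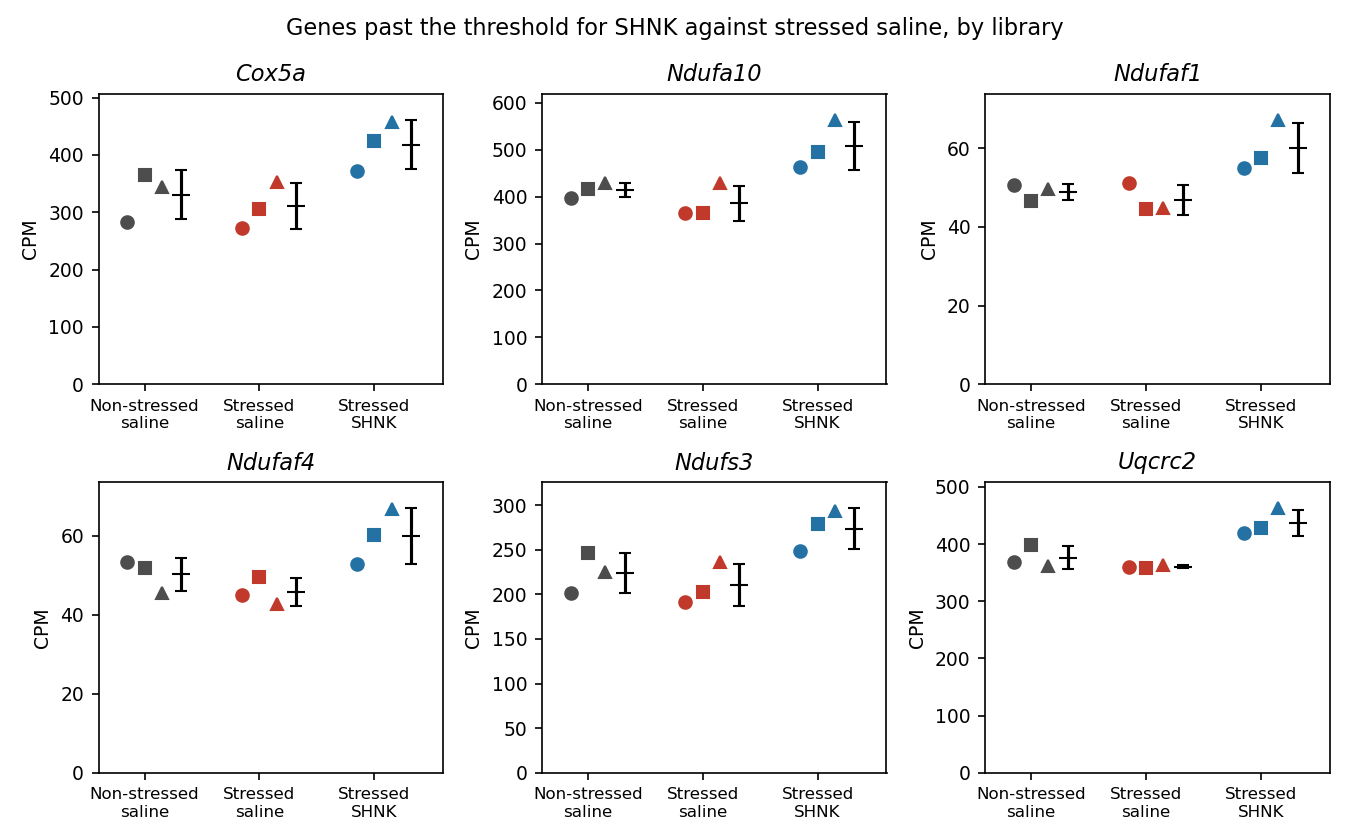
CPM of the 6 genes that passed in SHNK against stressed saline, in each library; circle, square and triangle are replicates 1, 2 and 3, and the bars are the mean and SD of 3 libraries. SHNK libraries lie above both saline groups except for Ndufaf4, where 52.8 CPM in SHNK falls below 53.4 CPM in non-stressed saline.

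Leaving out 1 library could end these calls. Without SHNK replicate 2, SHNK replicate 3 or stressed saline replicate 2, 0 of 93 members passed in edgeR, with adjusted p values of the 6 genes from 0.0786 to 0.139, 0.125 to 0.219 and 0.0679 to 0.148. The share of all tested genes called higher was then 0.383%, 0.257% and 0.493%. Without stressed saline replicate 1 only Ndufaf1 passed, and without stressed saline replicate 3 Cox5a, Ndufa10 and Ndufs3 passed, beside 0.991% and 1.32% of all genes. Without SHNK replicate 1 the count was 13 (2.86% of all genes), and without non-stressed saline replicate 1 and 2 it was 4 and 9 (2.14% and 3.02%). The log2 fold changes of the 6 genes stayed between 0.23 and 0.53 in all 9 fits. DESeq2 called 14 members higher (4.82% of all genes were called higher) and limma voom with sample quality weights 20 (5.39% of all genes), the same 6 included in both.

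The start regions of 3 of these genes are shown because they hold a motif of a factor known for nuclear genes of respiration, NRF1 (its palindromic consensus) or the GABP and ETS family (CCGGAAG), read on both strands. Each line gives the 250 bases before a transcript start of the RefSeq promoter table (GRCm38.p6; for Ndufaf1 that start lies slightly inside the outer end of the gene given above), 5′ to 3′ on the gene's strand, with the motif in capitals; the windows are chr4:24897833-24898082 on the plus strand for Ndufaf4, and chr2:119662835-119663084 and chr2:90904722-90904971 on the minus strand for Ndufaf1 and Ndufs3.
Ndufaf4: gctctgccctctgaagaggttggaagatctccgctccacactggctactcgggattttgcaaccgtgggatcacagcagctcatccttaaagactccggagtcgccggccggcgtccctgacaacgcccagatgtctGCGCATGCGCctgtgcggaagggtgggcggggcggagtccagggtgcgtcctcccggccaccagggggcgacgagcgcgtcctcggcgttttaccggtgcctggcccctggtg
Ndufaf1: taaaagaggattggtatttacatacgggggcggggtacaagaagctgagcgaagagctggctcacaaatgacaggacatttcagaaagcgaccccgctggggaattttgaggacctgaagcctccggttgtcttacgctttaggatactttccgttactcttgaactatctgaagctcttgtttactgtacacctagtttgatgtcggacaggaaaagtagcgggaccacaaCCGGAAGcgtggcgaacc
Ndufs3: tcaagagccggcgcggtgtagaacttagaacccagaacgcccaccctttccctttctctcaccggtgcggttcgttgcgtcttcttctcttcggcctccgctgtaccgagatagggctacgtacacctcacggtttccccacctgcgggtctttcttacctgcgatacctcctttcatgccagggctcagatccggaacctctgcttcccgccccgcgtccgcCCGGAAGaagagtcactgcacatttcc

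A window was given for 77 members and for 13096 tested genes. The NRF1 consensus occurred in 14 of the 77 (18.2%) and in 8.03% of the tested genes, and the GABP letters in 14 (18.2%) and 13.3%. For the ERR letters AAGGTCA the shares were 6.49% and 3.77%, and the YY1 letters AAGATGGC were in 1 member window and in 2.23% of the tested genes. Among the genes that passed, the windows of Ndufa10 and Cox5a held none of these 4 motifs and Uqcrc2 had no entry. Those windows were chr1:92473759-92474008 on the minus strand and chr9:57520982-57521231 on the plus strand. Both precede a transcript start that lies inside the gene span given above. For Cox5a the bases just before the outer start of the gene were not in the window. A match is a description of letters only.

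In complex I as a whole, Ndufa10 and Ndufs3 included, 36 of 38 subunits were above 0 (SHNK minus stressed saline), with a median of 0.16. Higher with groups apart were 7 (18.4%), near the 14.4% of all tested genes. Ndufv2, of the module that accepts electrons from NADH, was at 264, 293 and 307 CPM in stressed saline and 322, 359 and 403 CPM in SHNK, with groups apart and a log2 fold change of 0.33 (adjusted p = 0.0701). Its partners in that module were closer to 0, with Ndufv1, the NADH-binding subunit, at 0.14 (adjusted p = 0.331) and Ndufs1, the largest iron-sulfur subunit, at 0.14 (adjusted p = 0.325). Ndufa9, near the ubiquinone-binding region, was at 0.27 (adjusted p = 0.0677), and Ndufv3 was at -0.01. Ndufb4, Ndufb4b and Ndufb4c are near copies whose reads may be shared, so their values of 0.07, 0.07 and 0.11 are uncertain.

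Complex II had 0 of 4 members past the threshold in edgeR, beside 2.45% of all tested genes called higher and 3.96% lower. At an unadjusted p of 0.05, 2 were higher, beside 10.6% of all genes. The values of the complex lay on both sides of 0. DESeq2 and limma voom each called 1, Sdhd, beside 4.82% and 5.39% of all genes called higher. Sdha, the flavoprotein that oxidises succinate, was the only member of all 93 whose SHNK libraries lay wholly below stressed saline. It was at 837, 842 and 814 CPM in stressed saline, 872, 779 and 822 CPM in non-stressed saline and 770.2, 778 and 768 CPM in SHNK. The SHNK libraries lay below both saline groups, but the log2 fold change of -0.11 ± 0.070 missed the threshold (adjusted p = 0.392). Sdhd, a membrane anchor, was at 289.5, 286 and 293 CPM in stressed saline and 311, 349 and 378 CPM in SHNK, apart and higher (0.26, adjusted p = 0.0863). The iron-sulfur subunit Sdhb was at 0.22 (adjusted p = 0.176) and the other anchor, Sdhc, at 0.02 (adjusted p = 0.939).

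In complex III, 6 of 8 members were above 0, with a median of 0.13. Uqcrfs1, the Rieske iron-sulfur protein, was at 304, 315 and 363 CPM in stressed saline and 365, 395 and 408 CPM in SHNK (0.25, adjusted p = 0.0976). Uqcrb, which binds ubiquinone, was at 113, 123 and 141 CPM and then 147, 161 and 174 CPM (0.35, adjusted p = 0.0955). Both had groups apart. Uqcrc1, the partner of Uqcrc2 in the core, was at 0.12 (adjusted p = 0.381), and the small subunit Uqcr11 at -0.06 (adjusted p = 0.864).

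In complex IV, 16 of 18 tested members were above 0, with a median of 0.18. Cox4i1, the main form of subunit 4, was at 1086, 1052 and 1319 CPM in stressed saline and 1068, 1285 and 1321 CPM in SHNK, overlapping, with a log2 fold change of 0.09 (adjusted p = 0.708). Cox6a1, Cox7a2 and Ndufa4, all widely expressed subunits, were at 0.14, 0.13 and 0.22, with adjusted p values of 0.550, 0.585 and 0.331. Cox7a2l, a factor that joins complexes III and IV into supercomplexes, was at 0.24 (adjusted p = 0.145).

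Restricted or rare forms of complex IV held the largest fold changes of the 93, with large standard errors. Cox7b2, a testis-enriched form, was at 0.828, 0.707 and 0.788 CPM in stressed saline and 1.18, 1.47 and 1.36 CPM in SHNK, with groups apart and a log2 fold change of 0.79 ± 0.27 (adjusted p = 0.0959). Cox4i2 was at 1.49, 1.07 and 1.66 CPM in SHNK, so its lowest SHNK library lay only just above its highest stressed saline library, both 1.07 when rounded (0.71 ± 0.29, adjusted p = 0.153). Cox6a2, the muscle form that some neurons also express, was at 0.37 (adjusted p = 0.144), and Cox6b2, a testis form, at -0.41 (adjusted p = 0.441). Cox7a1 and Ndufa4l2, known from muscle and from mural cells of vessels, were at 0.12 and -0.06 (adjusted p = 0.870 and 0.907), beside mural marker means of 2.39 to 2.65 in stressed saline and 2.12 to 2.68 in SHNK.

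ATP synthase had 15 of 17 members above 0 and a median of 0.17, but 0 passed in edgeR, beside 2.45% of all tested genes called higher. At an unadjusted p of 0.05, 5 were higher, beside 10.6% of all genes. DESeq2 called Atp5c1 and Atp5pb, and limma voom called 4, beside 4.82% and 5.39% of all genes. Atp5c1, the gamma shaft of the rotor, was at 477, 487 and 523 CPM in stressed saline and 543, 621 and 681 CPM in SHNK (0.31, adjusted p = 0.0587). Atp5pb, the peripheral stalk subunit b, was at 543, 533 and 569 CPM and then 595, 679 and 743 CPM (0.29, adjusted p = 0.0651). Both had groups apart, as had the catalytic head subunits Atp5b (0.18, adjusted p = 0.158) and Atp5a1 (0.11, adjusted p = 0.347), while the small epsilon subunit Atp5e was at -0.15 (adjusted p = 0.565). Of the genes that encode the same mature ring subunit c, Atp5g1 was at 0.26, Atp5g3 at 0.29 and Atp5g2 at -0.06 (adjusted p = 0.197, 0.110 and 0.806). Per kilobase of the shortest principal transcript, Atp5g2 made up 12.8% ± 0.683 (SD, n = 3) of subunit c reads in stressed saline and 10.5% ± 0.706 in SHNK, and the libraries did not overlap (12.2% to 13.6% and 9.73% to 11.1%). In non-stressed saline its share was 11.6% ± 0.679.

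Within a library, the ratio of a pair of genes of one complex does not depend on the scaling. Pairs were picked after their values were seen, so the differences are a description. Cox5a minus Cox4i1 was -1.86 ± 0.043 log2 CPM (SD, n = 3) in non-stressed saline, -1.89 ± 0.11 in stressed saline and -1.55 ± 0.043 in SHNK. Uqcrb minus Uqcr11 was -0.27 ± 0.11, -0.28 ± 0.097 and 0.13 ± 0.11 in the same order. For both pairs the SHNK libraries were apart from both saline groups. Sdhb minus Sdha was -0.82 ± 0.19, -0.85 ± 0.17 and -0.52 ± 0.14, and there the ranges of SHNK and saline libraries overlapped. Uqcrc2 minus Uqcrc1 overlapped between SHNK (-1.44 to -1.27) and stressed saline (-1.60 to -1.40), but not with non-stressed saline. Sdhd minus Sdhc overlapped between SHNK (1.26 to 1.46) and non-stressed saline (1.06 to 1.35), but not with stressed saline. Ndufa10 minus Ndufv1 in SHNK (-0.17 to 0.14) was apart from both saline groups.

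**Figure D3:**
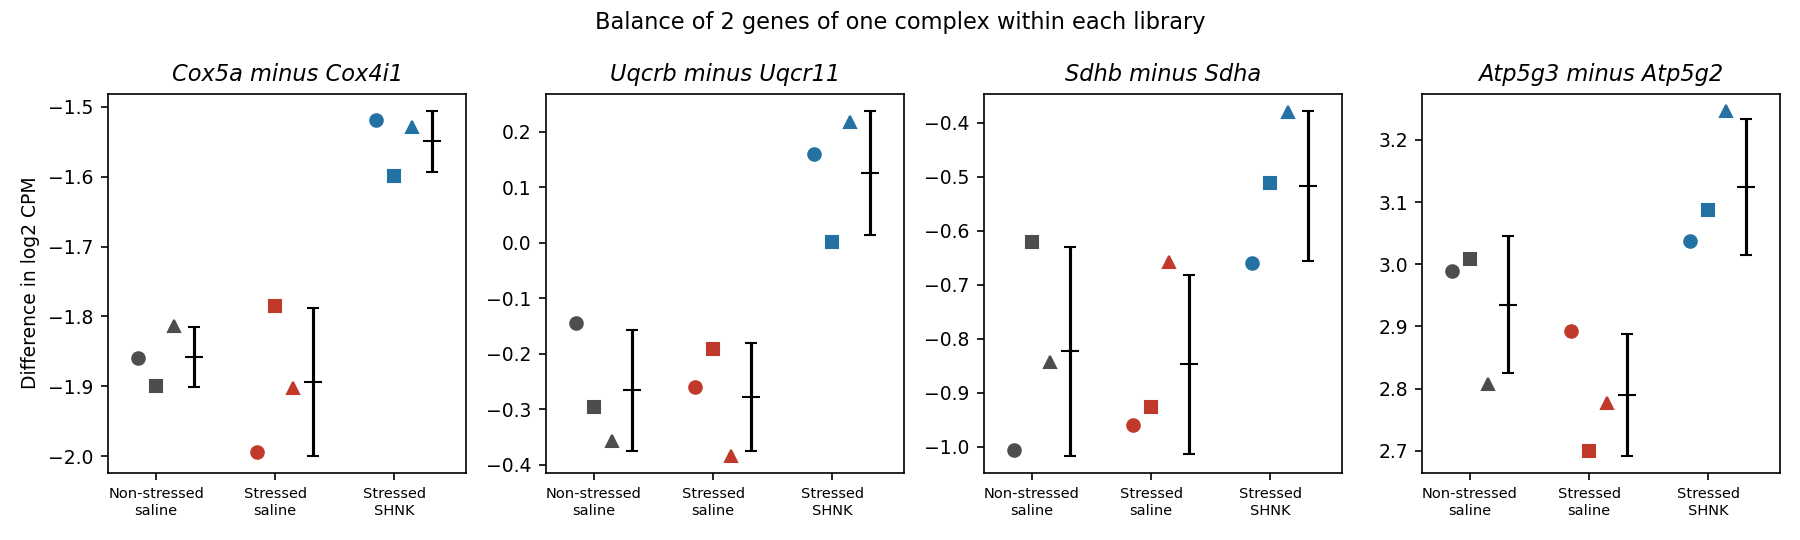
Difference in log2 CPM between 2 genes of one complex in each library (circle, square and triangle are replicates 1, 2 and 3), with the mean and SD of 3 libraries. For Cox5a minus Cox4i1, Uqcrb minus Uqcr11 and Atp5g3 minus Atp5g2 the SHNK libraries lie above all saline libraries, while Sdhb minus Sdha overlaps.

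Longer members had the larger median difference. The 31 members with transcripts of 1000 bases or longer had a median log2 fold change of 0.24 (SHNK minus stressed saline), with 5 called and 19 higher with groups apart. The 61 shorter members had a median of 0.13, with 1 called (Cox5a) and 4 apart. As shares, 16.1% of the longer and 1.64% of the shorter members were called higher, beside 2.45% of all tested genes. Higher with groups apart were 61.3% and 6.56%, beside 14.4% of all tested genes. The shares of all genes were not split by length. Across 92 members Spearman's rho between length and log2 fold change was 0.30, while across 16867 tested genes it was -0.17. Genes are not independent replicates, members share their libraries and depth, and the part of length in these changes was not tested. The shorter members spread more between libraries of one group: their mean log2 CPM was 6.42, 6.91 and 6.78 in the non-stressed libraries, where the longer members were at 7.81, 7.98 and 7.89.

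**Figure D4:**
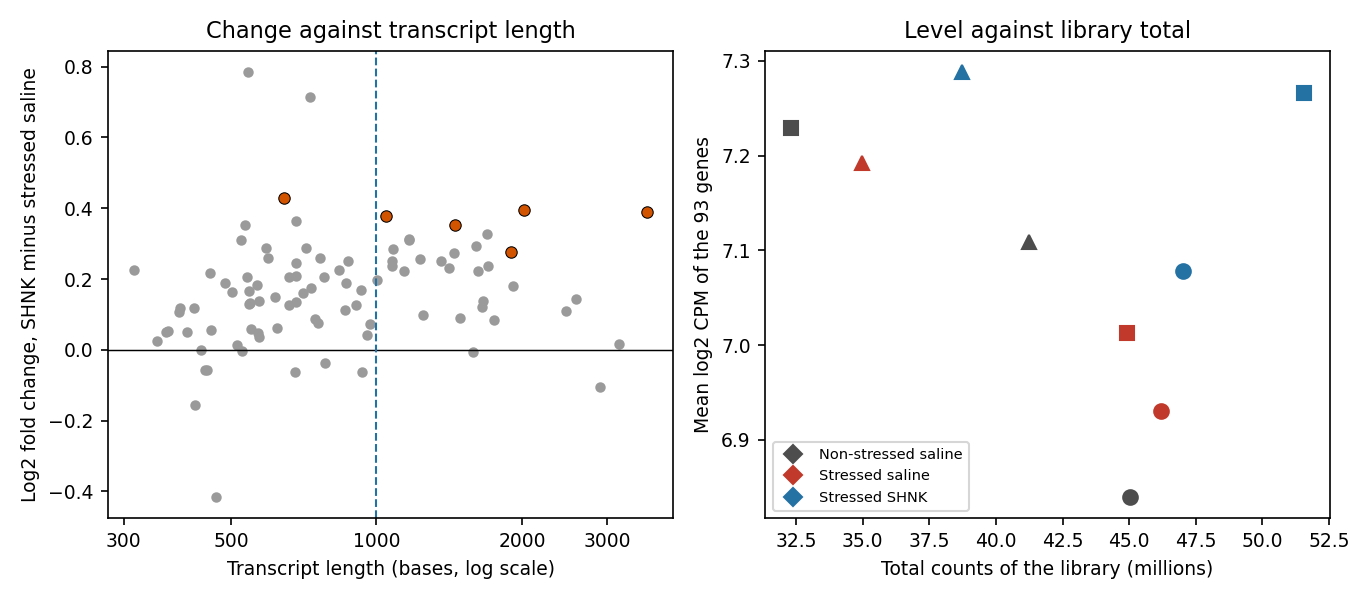
Left, log2 fold change of SHNK minus stressed saline against transcript length in bases on a log axis (orange, adjusted p under 0.05; dashed line, 1000 bases); 5 of the 6 orange points lie to the right of the line. Right, mean log2 CPM of the 93 tested genes against the total counts of the library; the groups overlap, at 6.84 to 7.23 in non-stressed saline, 6.93 to 7.19 in stressed saline and 7.08 to 7.29 in SHNK.

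SHNK against non-stressed saline asks how treated, defeated mice compare with mice that were never stressed; it shares the SHNK libraries with the comparison above. In edgeR 0 of 93 members passed, where 0.00550% of all tested genes were called, and limma voom called 0 (0.00% of all genes higher). At an unadjusted p of 0.05, 18 members were higher and 0 lower, against 7.31% and 11.0% of all genes. DESeq2 called 2 higher, Atp5pb and Ndufa10, and 1.82% of all genes. The members' median log2 fold change was 0.15 beside -0.00 for all tested genes. Above 0 were 89 of 93 members (95.7%) and 49.2% of all tested genes. Groups were apart for 9 members that were higher and for Sdha, which was lower, where 9.83% and 11.5% of all genes were apart. The smallest p values belonged to Ndufa10 and Atp5pb (log2 fold changes 0.29 and 0.28, both adjusted p = 0.126), then Atp5c1, Ndufaf1 and Ndufv2 (0.29, 0.29 and 0.30). On the lower side stood Sdha (-0.09, adjusted p = 0.514), Cox6b2 (-0.31), Atp5e (-0.11) and Uqcr11 (-0.05), the only 4 below 0. Non-stressed saline replicate 1 weighed on this median, which was 0.04 without it, with 58 of 93 above 0.

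The members moved together from library to library, also within a group. The mean log2 CPM of the 93 tested members was 6.84, 7.23 and 7.11 in non-stressed saline, 6.93, 7.01 and 7.19 in stressed saline and 7.08, 7.27 and 7.29 in SHNK. The number of members above their own mean over the 9 libraries was 6, 85 and 44 in non-stressed saline, 1, 9 and 74 in stressed saline and 32, 89 and 89 in SHNK. So non-stressed replicate 2 and stressed replicate 3 stood near the upper SHNK libraries, and the group ranges overlapped. As a share of all counts, the members held 2.30% to 2.70%, 2.36% to 2.72% and 2.53% to 2.79% in the same group order.

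**Figure D5:**
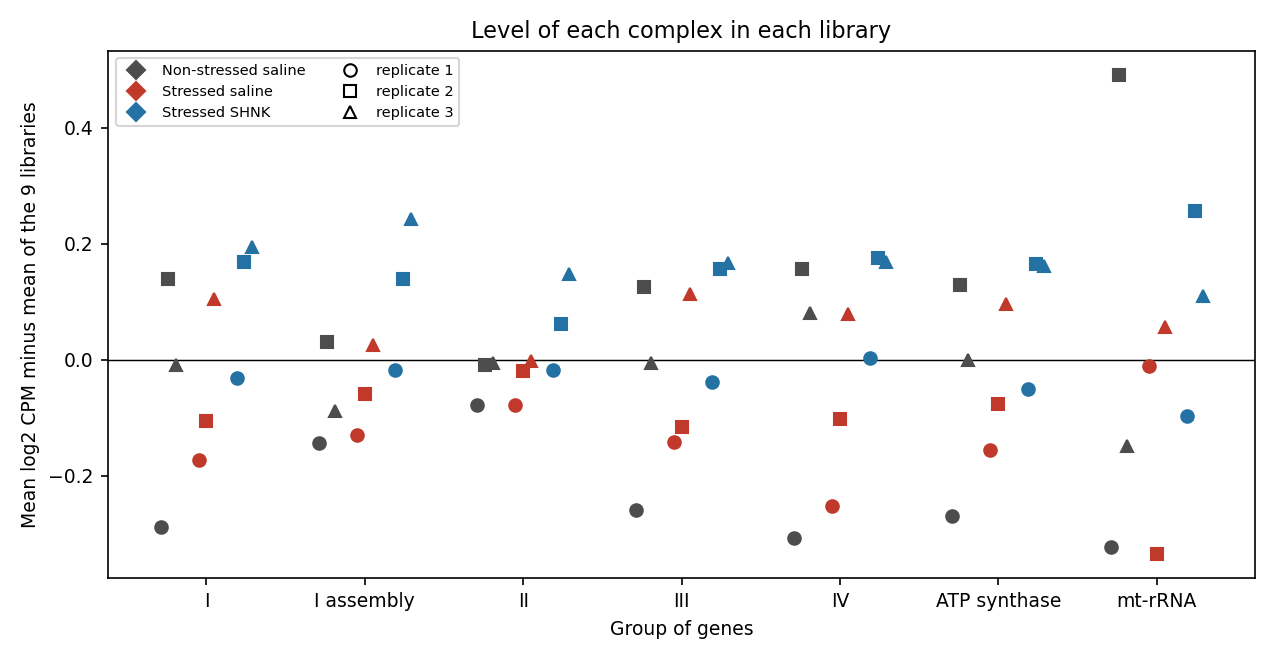
Mean log2 CPM of the genes of each complex, and of the 2 mitochondrial ribosomal RNAs (mt-rRNA), minus the mean of the 9 libraries; colours are groups and shapes are replicates. The low values of non-stressed saline replicate 1 recur in every complex, and for mt-rRNA non-stressed saline replicate 2 stands highest, at 10.95 log2 CPM.

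The mitochondrial genome could be read only through its ribosomal RNAs, a choice made after the table was seen; these RNAs are transcribed from mitochondrial DNA but are not messenger RNAs. mt-Rnr1, the small ribosomal RNA, had log2 fold changes of -0.18 for stress, 0.29 for SHNK against stressed saline and 0.10 for SHNK against non-stressed saline (adjusted p = 0.878, 0.325 and 0.784). mt-Rnr2, the large one, was at -0.09, 0.08 and -0.01 (adjusted p = 0.980, 0.832 and 0.984). Nuclear members minus the mitochondrial ribosomal RNAs, in mean log2 CPM, was -3.30, -3.72 and -3.20 in non-stressed saline, -3.52, -3.11 and -3.33 in stressed saline and -3.29, -3.45 and -3.28 in SHNK. The 3 groups overlapped, so no shift larger than the spread of libraries was seen with these 2 RNAs. That spread was wide, since they held 0.370% to 0.641% of counts within non-stressed saline alone. How evenly the library preparation captured them was not tested, so the overlap gives no measure of the balance between the genomes.

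The genes around the pathway were described by the same fit, in SHNK against stressed saline, where 2.45% of all tested genes were called higher, 3.96% lower and 48.7% were above 0. Of 44 other assembly factors, 2 (4.55%) rose and 0 fell, near the share of all genes, with 39 (88.6%) above 0 and a median of 0.13; the 2 were Ttc19, of complex III assembly (0.38, adjusted p = 0.0115), and Atpaf1, of ATP synthase assembly (0.36, adjusted p = 0.0281). Of 19 electron carrier genes 3 (15.8%) rose: Cycs, cytochrome c (0.44, adjusted p = 0.0223), and Coq10b and Coq3, of ubiquinone function and synthesis (0.48 and 0.30, adjusted p = 0.0135 and 0.0459). Gpd2, the glycerol phosphate dehydrogenase that feeds ubiquinone, fell by 0.33 (adjusted p = 0.0288). Of 78 mitochondrial ribosomal protein genes 4 (5.13%) rose and 0 fell (Mrpl37, Mrpl44, Mrpl49 and Mrps31), and 75 (96.2%) were above 0, with a median of 0.19.

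Of 20 genes of the citric acid cycle and pyruvate dehydrogenase 4 rose and 0 fell, or 20.0% and 0.00% beside 2.45% and 3.96% of all genes, with a median of 0.22. They were Sucla2 (0.36), a succinate-CoA ligase subunit, and Pdhb (0.40), Pdhx (0.34) and Dld (0.31) of pyruvate dehydrogenase, with adjusted p values from 0.0139 to 0.0499. Among 19 carriers of ATP and metabolites 6 (31.6%) rose and 2 (10.5%) fell. Those that rose were the adenine nucleotide carrier Slc25a5 (0.38), the phosphate carrier Slc25a3 (0.31), the porins Vdac1, Vdac2 and Vdac3 (0.28, 0.32 and 0.33) and the creatine kinase Ckmt1 (0.41). The citrate carrier Slc25a1 fell by 0.47 and the dicarboxylate carrier Slc25a10 fell by 0.53 (adjusted p = 0.00525 and 0.0214). In glycolysis 2 of 21 (9.52%) rose, Pgk1 (0.28) and Pgam1 (0.26).

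Of 18 biogenesis regulators 0 passed in edgeR, with a median of 0.01. At an unadjusted p of 0.05, 1 was higher and 2 were lower, beside 10.6% and 12.8% of all genes. DESeq2 called 0, where it called 4.82% of all genes higher, and limma voom called 1, as lower. That one, Nrf1, which encodes the factor whose motif was searched above, was at -0.32 (adjusted p = 0.0940 in edgeR). The shares of all genes that DESeq2 and limma voom called lower are not given here. Of 32 genes for expression of mitochondrial DNA 1 (3.13%) rose, Mterf2 (0.39, adjusted p = 0.0287), and of 22 genes of hypoxia and mitochondrial stress 1 (4.55%) rose, Bnip3 (0.34, adjusted p = 0.0406), both shares near the 2.45% of all genes. In the same comparison 3 of 12 pan-neuronal markers rose (Snap25, Syt1 and Stmn2, at 0.52, 0.44 and 0.42), 9 of 14 markers of other thalamic nuclei rose (median 0.43) and 4 of 5 blood genes rose (median 0.48). In the other direction 7 of 12 astrocyte markers, 12 of 13 habenula markers, 6 of 12 ependyma markers, 3 of 9 choroid plexus markers and 1 of 11 endothelial markers fell. The remaining habenula marker, Calb1, rose. It is also on the list of other thalamic nuclei and is counted among the 9 there. Of the 10 aPVT markers 1, Cck, rose and 0 fell. These counts stand beside the same 2.45% and 3.96% of all genes, and the part of these differences in the values above was not tested.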

How the data were processed

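The deposited table holds raw read counts per gene symbol; the authors made them with Trimmomatic 0.38, HISAT2 and StringTie on GRCm38/mm10, per the submitters' processing notes. The role of each tool, other versions and the strand setting are not stated in the sources used here. Per the labels, 100 ng of total RNA from a Direct-zol kit entered SMARTer Ultra low and TruSeq libraries.

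Groups came from the labels. Genes were kept with filterByExpr (minimum count 10, minimum total 15), which left 18194 of 18956, and scaled with TMM. One quasi-likelihood model over 3 groups was fitted (edgeR 4.0.16, R 4.3.3; 6 residual degrees of freedom, common biological coefficient of variation 0.132). P-values were adjusted by Benjamini-Hochberg across the whole tested table and called at 0.05. A prior count of 2 entered log2 CPM. The script was tested on simulated data. Total counts of 32307869 to 51569143 leave the spread between libraries, not counting error, as the limit for all but the rarest members. No 2 libraries of one group were duplicates, since the mean chi-square per gene between their counts was 13.4 to 31.6. Libraries of different groups were not compared in this way.

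Transcript length is the shortest principal coding transcript in GENCODE M21, known for 93 members. Coordinates and start regions are from RefSeq, GRCm38.p6. Named members were a fixed set of subunits and restricted forms, all that passed, the 5 smallest p in each direction, and changes over 1.5-fold, except that 1 named by this rule is not reported here; pairs and others were chosen after their values were seen. The members and lists were chosen with earlier results of these data known. Alternatives were DESeq2 1.42.0, limma 3.58.1 voom with sample quality weights, other scalings and filters, a replicate block, 2 groups only, an adjusted p of 0.1, and each library left out.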

Additional observations from a re-analysis of the deposited data

How the results depend on the processing

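For SHNK against stressed saline the count of 6 members called in edgeR became 14 with DESeq2 and 20 with limma voom. The shares of all genes called higher were 2.45%, 4.82% and 5.39%. The count was 16 at an adjusted p of 0.1, a looser threshold for which the share of all genes is not given here. When 1 library was left out it ran from 0, beside 0.257% to 0.493% of all genes, to 13, beside 2.86%. The count stayed 6, the same 6 genes, with DESeq2 size factors, upper-quartile scaling and scaling without the mitochondrial rows. So it did with no filter and with a filter of 1 CPM in 3 libraries. In these fits 2.19% to 3.13% of all genes were called higher. With only the 2 groups the count was 7, beside 2.96% of all genes. For SHNK against non-stressed saline the count of 0 became 2 with DESeq2, beside 1.82% of all genes called higher. It ran from 0 to 1 with a library left out, the 1 beside 0.837% of all genes. For stress against no stress it was 0 throughout. The median log2 fold change of the members ran from 0.11 to 0.27, from 0.04 to 0.24 and from -0.12 to 0.08 with a library left out, in that order of comparisons. The cause of these changes was not tested.

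Deviations of same-numbered libraries from their group means had correlations from -0.10 to 0.11 over all tested genes. Such values cannot decide whether equal numbers share a day or batch that acts on some genes. With the replicate block 4 members passed in SHNK against stressed saline, 3 of them shared with the 6, beside 1.71% of all genes called higher. In the other comparisons 0 passed. The medians were 0.17 for SHNK against stressed saline, 0.15 for SHNK against non-stressed saline and -0.01 for stress. The planned counts and medians for mitochondrially encoded members gave no value, because mitochondrially encoded messenger RNAs were not analysed here. Counts of 22 to 71 limit what can be said of Cox4i2.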
